A study of Mus musculus with 18 samples.

Results

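The MYC network is a family of basic helix-loop-helix leucine zipper transcription factors that share a dimerization partner. Its 10 members examined here were *Myc*, *Max*, *Mxd1*, *Mxd3*, *Mxd4*, *Mxi1*, *Mnt*, *Mga*, *Mlx* and *Mycl*, chosen by name as the rows of the count table whose Ensembl identifiers carry these symbols. They are 10 of 43629 gene rows, and 9 of them were among the 11964 genes with enough counts to be tested. The exception was *Mycl*.

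AT3 cells are a mouse mammary carcinoma line used as a model of triple-negative breast cancer. Gene expression was measured in them by 3′ mRNA sequencing, in which reads come from the 3′ ends of transcripts, in 18 libraries of 6 conditions with 3 libraries each. The study asked how A-241 and A-485, which are 2 chemically distinct inhibitors of the catalytic acetyltransferase activity of P300 and CBP, alter steady-state and interferon-γ-induced transcription. P300 and CBP are paralogous lysine acetyltransferases that acetylate histone H3 lysine 27 at enhancers and promoters.

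The control condition received DMSO, the solvent that all conditions share. A-241 was given at 250 nM and A-485 at 1000 nM for 3 h in all. The IFNy condition received DMSO and then interferon-γ (IFNγ) for the last 2 h, and the conditions A-241+IFNy and A-485+IFNy received an inhibitor for 1 h before the same cytokine. The labels give no dose for the combined conditions, and the study's methods name the same doses there as for each inhibitor alone. All libraries are from 1 cell line, and the sources differ on whether the triplicates are biological or technical, so the p-values below measure only the spread between these libraries.

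MYC activates transcription as a heterodimer with MAX, binding the E-box CACGTG and recruiting acetyltransferase and other coactivator complexes. The MXD proteins (encoded by *Mxd1*, *Mxd3*, *Mxd4* and *Mxi1*) and MNT also pair with MAX, bind the same E-boxes and recruit SIN3 and histone deacetylases, so that they oppose MYC. MGA pairs with MAX too and is a subunit of the repressive complex PRC1.6. MLX is a MAX-like protein that pairs with some of the repressors and with the glucose-sensing factors MONDOA and CHREBP. MYC is an oncoprotein of many carcinomas, and its transcript and protein are both known to turn over quickly.

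In the GRCm38 build *Myc* lies at chr15:61985391-61990374, *Max* at chr12:76937269-76962201, *Mxd1* at chr6:86647042-86669161 and *Mnt* at chr11:74830920-74845725. All 10 are protein-coding genes, and exons of these 4 and of *Mga* and *Mycl* share no base with another gene. Reads were counted without regard to strand, and a read on 2 genes was counted for each. *Mlx* (chr11:101087277-101092207) shares the last 385 bases of its 3′ end with *Psmc3ip* on the opposite strand, and the 2 genes held 1196 and 1216 counts in all. *Mxd3* (chr13:55325168-55329823) shares the last 105 bases with *Prelid1*, which held 19854 counts against 342 for *Mxd3*. The *Mlx* and *Mxd3* values are therefore uncertain, since reads of the partner gene cannot be told apart there. *Mxd4* (chr5:34173883-34187720) shares 514 exon bases, from 4 bases before its 3′ end, with an antisense transcript that has no row of its own. Reads of that transcript there would be counted for *Mxd4*, and how many there were is not known. *Mxi1* (chr19:53310518-53375810) shares 194 with *Gm10197*, which held 1 count.

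Because MYC, MXD and MNT dimers bind the E-box, the promoters of the members were searched for CACGTG on both strands, a motif that equals its own reverse complement. RefSeq's promoter table (GRCm38.p6) held 11 promoters of 9 members, with no entry for *Myc*. The E-box occurred in the 250 bases before the transcription start of 3 of the 9, namely *Mnt*, *Mlx* and *Mxd4*, while 6.86% of all 27025 genes in the table had it in at least 1 promoter. Every CACGTG also matches the looser CANNTG, which 5 of the 9 members and 69.3% of all genes had. The motif TTCNNNGAA, bound by STAT proteins, was in the promoters of 0 of the 9 members and of 8.13% of all genes. A match describes the letters only. The 3 promoters with an E-box are shown with that of *Mxd1*, the member called higher with A-241, each up to the first base of the annotated gene and with the E-box in capitals. They are chr11:74830674-74830919 (plus strand) for *Mnt*, chr11:101087040-101087276 (plus) for *Mlx*, chr5:34187721-34187960 (minus) for *Mxd4* and chr6:86669162-86669409 (minus) for *Mxd1*.
Mnt: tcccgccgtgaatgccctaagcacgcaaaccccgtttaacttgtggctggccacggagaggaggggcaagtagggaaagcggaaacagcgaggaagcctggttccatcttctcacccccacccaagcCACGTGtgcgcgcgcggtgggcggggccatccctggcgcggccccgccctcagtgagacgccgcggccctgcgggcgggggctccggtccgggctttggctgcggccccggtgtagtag
Mlx: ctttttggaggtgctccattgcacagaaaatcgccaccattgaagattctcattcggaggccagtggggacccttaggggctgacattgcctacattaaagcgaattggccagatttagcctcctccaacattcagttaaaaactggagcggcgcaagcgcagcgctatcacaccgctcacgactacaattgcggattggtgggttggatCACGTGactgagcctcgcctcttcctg
Mxd4: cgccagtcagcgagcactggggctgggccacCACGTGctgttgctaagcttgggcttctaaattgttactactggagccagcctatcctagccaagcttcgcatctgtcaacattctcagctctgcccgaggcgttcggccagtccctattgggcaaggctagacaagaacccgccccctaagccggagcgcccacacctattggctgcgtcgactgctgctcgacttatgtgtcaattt
Mxd1: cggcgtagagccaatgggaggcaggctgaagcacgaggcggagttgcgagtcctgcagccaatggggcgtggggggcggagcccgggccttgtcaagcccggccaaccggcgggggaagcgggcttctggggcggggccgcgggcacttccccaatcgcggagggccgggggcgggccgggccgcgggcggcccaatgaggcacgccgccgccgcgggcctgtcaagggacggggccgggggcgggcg
The E-box began 123 bases before the RefSeq start of *Mnt*, 40 before that of *Mlx* and 219 before that of *Mxd4*.

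The libraries held 3417167 to 7856830 counts, at which 3 counts are worth 0.368 to 1.03 CPM, the count scaled to the effective size of the library. Replicate 3 of DMSO and replicate 2 of IFNy stood apart, with 20.1% and 23.0% of their counts on *Gm42418*, a transcript rich in ribosomal RNA sequence, against 7.11 to 16.2% in the other 16. The fold changes of called members and the counts of called list genes are given with all libraries, and again without these 2 where that changes them. Epithelial markers summed to 775 to 1329 CPM, with *Cdh1* the highest of them (286 to 792 CPM), although *Krt19* and *Cldn4* were at or near 0. Endothelial markers summed to 0.571 to 4.12 CPM, with *Pecam1* at 0.434 to 4.12 CPM and *Cdh5* and *Tek* at 0. Leukocyte markers summed to 3.69 to 40.7 CPM, with *Lyz2* the highest of them (0.630 to 31.3 CPM). *Ptprc* was at 0 to 16.9 CPM, *Itgam* at 0.210 to 6.54 CPM and *Adgre1* at 0. The 8 mesenchymal and stromal markers summed to 90.1 to 212 CPM, nearly all of it *Vim* (81.8 to 204 CPM), and each of the other 7 was at most 6.17 CPM.

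With A-241 alone, *Myc* and *Mnt* fell and *Mxd1* rose against DMSO. These 3 of the 9 tested members passed an adjusted p under 0.01, where 4.35% of all tested genes did (0.827% higher and 3.53% lower). All libraries of the 2 conditions were separated for 7 members, with 3 higher and 4 lower, where 26.7% of all genes were separated. The median log2 fold change of the 9 was -0.15, against 0.01 over all genes. In bulk RNA, fewer expressing cells and less RNA per cell cannot be told apart. Counts were scaled to each library, so a change shared by all genes would not show, and rises and falls are relative. Without IFNγ the marker sums moved with these results. Epithelial markers summed to 793 to 914 CPM with A-241 against 943 to 1329 in DMSO, and mesenchymal and stromal markers to 90.6 to 96.1 against 121 to 212. With A-241+IFNy against IFNy the epithelial sums overlapped, at 775 to 899 against 853 to 1057. The mesenchymal and stromal sums there were 90.1 to 113 against 145 to 193. Their part in the results was not tested.

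*Myc* had 42, 66 and 63 counts in the DMSO libraries, or 8.83, 10.4 and 21.7 CPM. With A-241 it had 2, 4 and 0 counts, or 0.42, 0.80 and 0 CPM. Every A-241 library was below every DMSO library, and the mean with A-241 was 2.98% of the DMSO mean. The log2 fold change was -4.93 with a standard error of 0.64 (95% interval -6.29 to -3.57, edgeR adjusted p = 0.000115). With only 6 *Myc* counts over the 3 A-241 libraries, the size of this fold is loosely known. The highest DMSO value is that of replicate 3, which stands apart, and without both such libraries the log2 fold change was -4.51. The call was kept in each of the 18 fits that left out 1 library, with log2 fold changes of -5.83 (without A-241 replicate 2) to -4.38 (without A-241 replicate 3).

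*Mnt* encodes the most widely expressed of the MAX-binding repressors. It had 2.94, 4.88 and 7.24 CPM in DMSO (14, 31 and 21 counts) and 0.839, 1.6 and 0.841 CPM with A-241 (4, 8 and 4 counts), with no overlap. The log2 fold change was -2.13 ± 0.43 (SE, edgeR adjusted p = 0.00436), and -1.87 without the 2 libraries that stand apart. The call was lost without DMSO replicate 2 (adjusted p = 0.013) or 3 (0.0172), without A-241 replicate 1 (0.028) or 3 (0.0285), and with limma-voom (0.0109).

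*Mxd1* encodes a repressor that is typically induced when cells leave the cycle and differentiate. It was at 5.47, 3.62 and 4.48 CPM in DMSO (26, 23 and 13 counts) and at 14.7, 10.2 and 16.2 CPM with A-241 (70, 51 and 77 counts). All A-241 libraries were above all DMSO libraries, and it was the only member called higher. The log2 fold change was 1.6 ± 0.32 (SE, edgeR adjusted p = 0.00469), and 1.57 without the 2 libraries that stand apart. Leaving out DMSO replicate 1, 2 or 3 gave adjusted p values of 0.0106, 0.0248 and 0.0115, and leaving out A-241 replicate 1 or 3 gave 0.0209 and 0.026, so the call did not hold in these 5 fits.

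**Figure D1:**
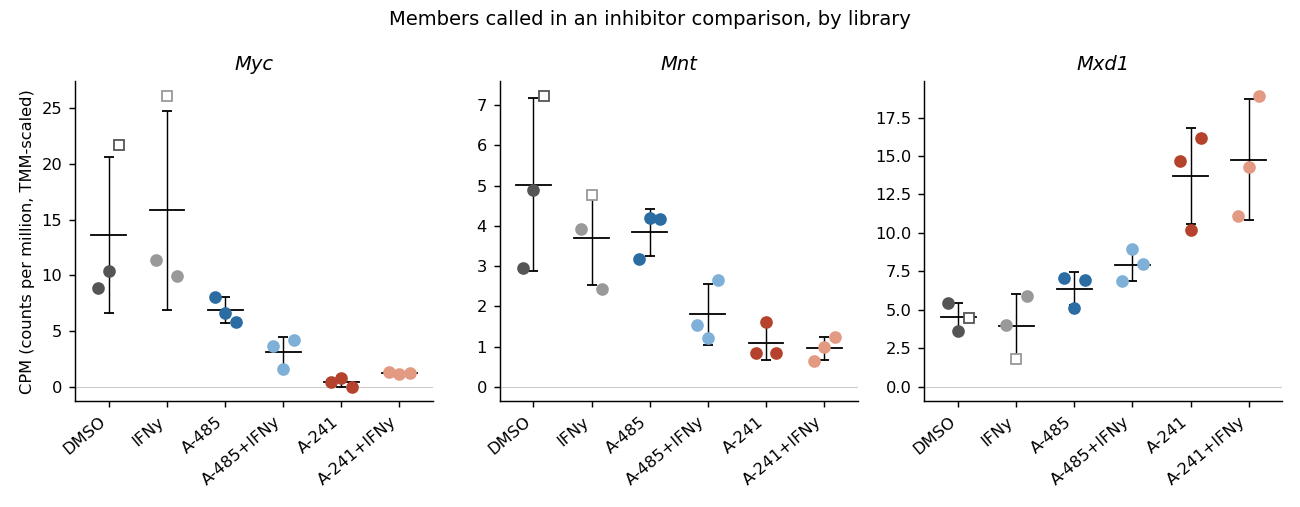
CPM of *Myc*, *Mnt* and *Mxd1* in each library, by condition, with the mean (bar) and SD (whiskers) of 3 libraries, and open squares for DMSO replicate 3 and IFNy replicate 2, which stand apart. *Myc* is at or below 0.80 CPM with A-241 and between 8.83 and 21.7 in DMSO, while *Mxd1* is above 10 CPM only in the A-241 and A-241+IFNy libraries.

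*Max*, the shared partner, was at 61.4, 63.6 and 7.58 CPM in DMSO and at 57.9, 41.8 and 42.5 with A-241. DMSO replicate 3 and IFNy replicate 2 held 7.58 and 17.5 CPM of *Max*, below the 41.8 to 76.7 CPM of the other 16 libraries. The share of *Gm42418* moved with this, and its part in the low *Max* values was not tested. Because of these values the *Max* log2 fold change with A-241 was poorly determined, at 0.08 with a 95% interval of -1.04 to 1.2. Without both libraries it was -0.44 (edgeR adjusted p = 0.139).

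*Mlx* was at 5.47, 11.7 and 13.1 CPM in DMSO and at 16.4, 16.6 and 16.4 with A-241, a log2 fold change of 0.72 ± 0.25 (SE) that missed the threshold (edgeR adjusted p = 0.0918). *Mxd3*, an MXD gene whose expression is associated with S phase, was at 2.31, 3.62 and 4.83 CPM in DMSO and at 5.25, 5.80 and 6.10 with A-241 (log2 fold change 0.70 ± 0.34, adjusted p = 0.233). Both genes had separated conditions, both share their 3′ end with another gene, and neither was called.

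*Mxi1*, which encodes an MXD repressor also known as MXD2, was at 24.2, 21.9 and 28.3 CPM in DMSO and at 12.8, 18.6 and 16.4 with A-241, again without overlap (log2 fold change -0.63 ± 0.22, edgeR adjusted p = 0.0851). *Mga* was separated too, with 39.3 to 60.0 CPM in DMSO and 32.9 to 38.3 with A-241, at -0.39 ± 0.21 (adjusted p = 0.287). *Mxd4* overlapped, with 50.3 to 87.5 CPM in DMSO and 50.0 to 69.0 with A-241 (log2 fold change -0.15, 95% interval -0.63 to 0.33).

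**Figure D2:**
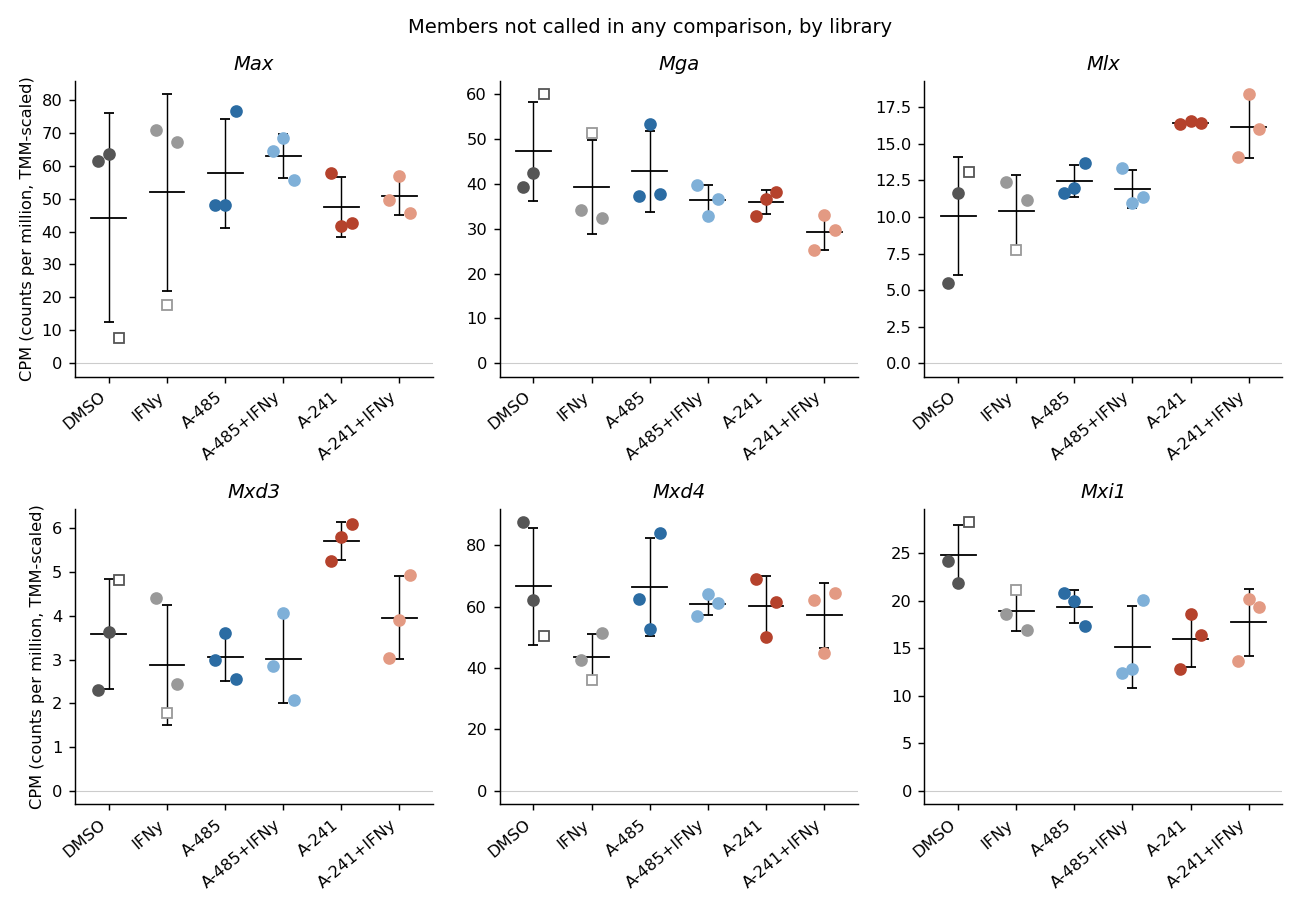
CPM of the 6 tested members that were called in no comparison, by condition, with the mean (bar) and SD (whiskers) of 3 libraries and open squares for DMSO replicate 3 and IFNy replicate 2. *Max* is at 7.58 and 17.5 CPM in these 2 libraries and between 41.8 and 76.7 CPM in the others.

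*Mycl* encodes L-MYC, a MYC paralogue. It had 20 counts over all libraries and too few for a test. The DMSO libraries had 5, 2 and 0 counts and the IFNy libraries 7, 0 and 3. The A-485 libraries had 0, 0 and 1, the A-485+IFNy libraries 0, 1 and 1, and all 6 libraries with A-241 had 0. At the depth of a single library a count of 0 allows up to 0.368 to 1.03 CPM, and the highest *Mycl* value was 1.05 CPM. Its means over 3 libraries were 0.456 CPM in DMSO, 0.461 in IFNy and 0 in both A-241 conditions, a difference that was not tested. Of the other paralogues, *Mycn* had 0 counts in every library.

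With A-485 alone no member passed the threshold. Of the 9 members, 0 were called by edgeR, DESeq2 or limma-voom and 1 had an unadjusted p under 0.05. Among all genes 0.66% were called, a share at which 0 of 9 is no result about the members. *Myc* was at 8.10, 6.67 and 5.80 CPM with A-485 against 8.83, 10.4 and 21.7 in DMSO, which did not overlap, with a mean of 50.2% of the DMSO mean. The log2 fold change was -0.95 ± 0.44 (SE, edgeR adjusted p = 0.396), and -0.52 without the 2 libraries that stand apart. *Mxi1* was the other separated member, at 17.4 to 20.8 CPM against 21.9 to 28.3, and 15.9% of all genes were separated. *Mnt* was at 3.17 to 4.19 CPM and *Mxd1* at 5.14 to 7.04 CPM, both overlapping the DMSO libraries, with log2 fold changes of -0.35 (95% interval -1.12 to 0.42) and 0.50 (-0.21 to 1.21).

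**Figure D3:**
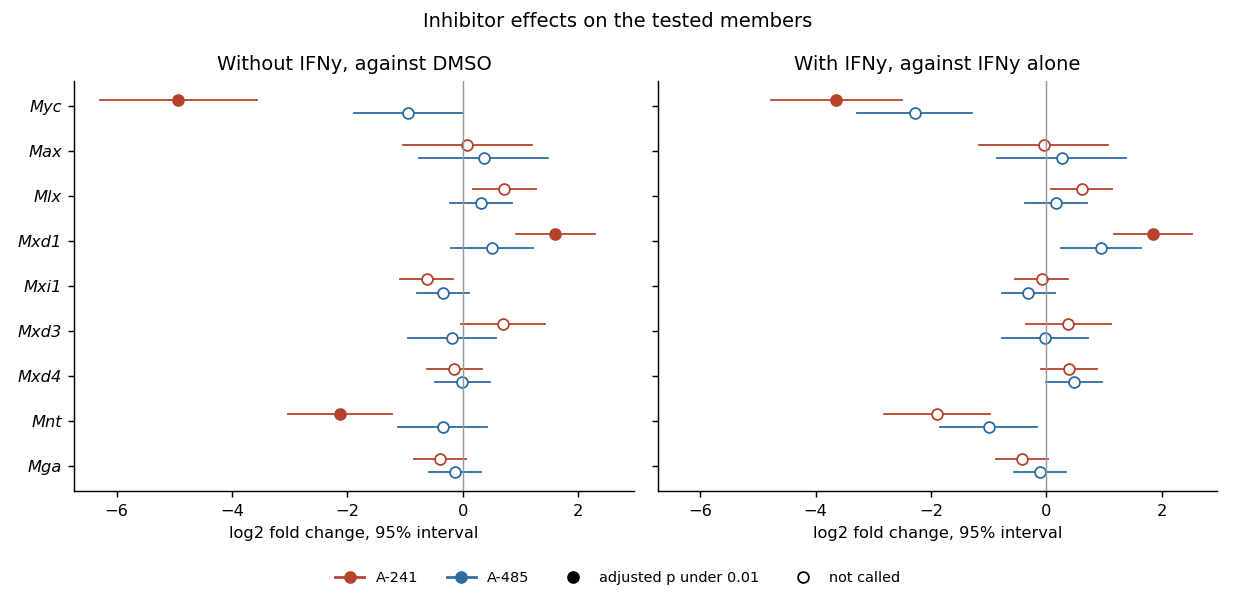
Log2 fold changes of the 9 tested members with their 95% intervals, for A-241 (red) and A-485 (blue), without IFNγ against DMSO (left) and with IFNγ against IFNγ alone (right); filled points passed an adjusted p under 0.01. *Myc* lies at -4.93 with A-241 and -0.95 with A-485 on the left, and at -3.64 and -2.28 on the right.

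The 2 inhibitors were then set against each other directly, at doses that differ (250 nM and 1000 nM). *Myc* differed between them by a log2 fold change of -3.98 ± 0.66 (SE, edgeR adjusted p = 0.00647), with the lower level under A-241. It was the 1 member called, where 0.368% of all genes were, and 5 of 9 members had separated libraries, against 22.6% of all genes. This call is close to the threshold: limma-voom gave 0.0448, and without 1 of 10 libraries the adjusted p was 0.0108 to 0.0451. Resting on 6 *Myc* counts over the A-241 libraries, this difference was -4.88 without A-241 replicate 2 and -3.44 without A-241 replicate 3. The 10 libraries were the 3 of A-241, the 3 of A-485, the 3 of A-241+IFNy and replicate 1 of A-485+IFNy. Of the others, *Mnt* (0.839 to 1.6 CPM against 3.17 to 4.19, log2 fold change -1.78 ± 0.43) and *Mxd1* (10.2 to 16.2 CPM against 5.14 to 7.04, 1.10 ± 0.31) were separated but not called, with adjusted p values of 0.0669 and 0.142. With DESeq2 these were 0.0346 and 0.0374. For *Max* the difference was -0.28, with an interval of -1.40 to 0.84, which leaves room for a difference in either direction.

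IFNγ without inhibitor changed no member at the threshold. edgeR, DESeq2 and limma-voom each called 0 of 9, with 1 at an unadjusted p under 0.05, where 1.3% of all genes were called. At that share 0 of 9 is no result about the members. The 95% interval of *Max*, -0.90 to 1.34, leaves room for a change in either direction. *Myc* was at 11.4, 26.2 and 9.94 CPM with IFNγ, overlapping DMSO, and its log2 fold change of 0.22 had a 95% interval of -0.68 to 1.11. *Mxd4* had the smallest p, with 42.7, 36.3 and 51.5 CPM against 87.5, 62.1 and 50.3 in DMSO, a log2 fold change of -0.62 ± 0.23 (SE, edgeR adjusted p = 0.35). *Mxi1* was the only member with separated libraries, at 16.9 to 21.1 CPM against 21.9 to 28.3 (-0.39 ± 0.21), where 7.86% of all genes were separated.

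In IFNγ-treated cells, A-241 lowered *Myc* and raised *Mxd1*. These were 2 of 9 members called, where 4.09% of all genes were (0.543% higher and 3.54% lower). *Myc* was at 1.3, 1.14 and 1.23 CPM (6, 7 and 6 counts) with A-241+IFNy, against 11.4, 26.2 and 9.94 CPM (93, 88 and 57 counts) with IFNγ alone. The log2 fold change was -3.64 ± 0.53 (SE, edgeR adjusted p = 0.000306), and -3.12 without the 2 libraries that stand apart. It was called in all 18 fits that left out 1 library. *Mxd1* was at 11.1, 14.3 and 18.9 CPM against 4.05, 1.78 and 5.93, where the lowest value is that of IFNy replicate 2. The *Mxd1* log2 fold change was 1.85 ± 0.32 (adjusted p = 0.00136), or 1.58 without the 2 libraries that stand apart, and the call was lost without A-241+IFNy replicate 3 (0.0112).

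*Mnt* was at 0.651, 0.976 and 1.23 CPM with A-241+IFNy and at 3.92, 4.76 and 2.44 with IFNγ alone, without overlap. Its log2 fold change of -1.90 ± 0.43 (SE) missed the threshold (edgeR adjusted p = 0.011), while DESeq2 gave 0.00476. *Mlx* was again separated, at 14.1 to 18.4 CPM against 7.73 to 12.4, and was not called (0.61 ± 0.25, adjusted p = 0.166). *Mxi1*, which lay lower with A-241 alone, overlapped here (log2 fold change -0.08, 95% interval -0.54 to 0.37). *Mga*, *Mxd3*, *Mxd4* and *Max* overlapped as well, with log2 fold changes of -0.42, 0.38, 0.39 and -0.04. In all, 4 members were separated, against 23.7% of all genes.

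A-485 in IFNγ-treated cells gave 0 calls with edgeR and limma-voom and 1 with DESeq2, with 3 members at an unadjusted p under 0.05. edgeR called 0.552% of all genes, a share at which its 0 calls are no result about the members. *Myc* was at 3.63, 1.63 and 4.17 CPM (19, 8 and 22 counts), below all 3 IFNy libraries, with a mean of 19.8% of theirs. The log2 fold change was -2.28 ± 0.47 (SE, edgeR adjusted p = 0.0195). DESeq2 gave 0.000284, and edgeR gave 0.00234 without the 2 libraries that stand apart, when the log2 fold change was -1.76. *Mxd1* was at 6.87 to 8.94 CPM, above the 1.78 to 5.93 CPM of IFNy, at 0.95 ± 0.33 (adjusted p = 0.176). *Mnt* was at 1.53, 1.22 and 2.65 CPM, which overlapped IFNy, at -1.0 ± 0.40 (adjusted p = 0.251). *Mxd4* was separated too, at 56.9 to 64.0 CPM against 36.3 to 51.5 (0.48 ± 0.23), and 20.6% of all genes were.

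Under IFNγ the 2 inhibitors, again at unequal doses, gave no member a difference past the threshold, with 0 called by each of the 3 tools and 2 at an unadjusted p under 0.05. Among all genes 0.518% were called, a share at which 0 calls is no result about the members. *Myc* was at 1.14 to 1.3 CPM with A-241+IFNy and at 1.63 to 4.17 with A-485+IFNy, a log2 fold change of -1.35 with a 95% interval of -2.60 to -0.11 (edgeR adjusted p = 0.67). *Mxd1* was at 11.1 to 18.9 CPM against 6.87 to 8.94 (0.90, interval 0.26 to 1.54, adjusted p = 0.349). Separated libraries were found for 3 members, namely these 2 and *Mlx*, against 19.7% of all genes.

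The response to IFNγ in the presence of an inhibitor was tested in its own right. With A-241 present, 0 of 9 members were called by each of the 3 tools and 0 had an unadjusted p under 0.05, where 0.192% of all genes were called. *Myc* was at 1.14 to 1.3 CPM with A-241+IFNy and at 0 to 0.80 with A-241, at 1.51 with a 95% interval of -0.24 to 3.26. With A-485 present 0 were called by each tool and 2 had an unadjusted p under 0.05, where 0.802% of all genes were called. At both shares 0 of 9 is no result about the members. *Myc* was at 1.63 to 4.17 CPM with A-485+IFNy and at 5.80 to 8.10 with A-485 (-1.12 ± 0.48, edgeR adjusted p = 0.718), and *Mnt* at 1.22 to 2.65 and 3.17 to 4.19 (-1.07 ± 0.40, adjusted p = 0.485). The interaction of each inhibitor with IFNγ called 0 members with each tool, with 0 at an unadjusted p under 0.05, though DESeq2 gave no adjusted p for *Mnt* and *Mxd3*. Among all genes 0.0334% were called for A-241 and 0% for A-485, so 0 calls is no result about the members here either. For *Myc* the interaction was 1.3 (95% interval -0.67 to 3.26) with A-241 and -1.33 (-2.69 to 0.03) with A-485, so the data do not show whether IFNγ alters either inhibitor's effect on *Myc*.

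Over the 6 conditions, the mean log2 CPM of *Myc* ran from 3.89 ± 0.74 (SD, n = 3) in IFNy through 3.70 ± 0.67 in DMSO, 2.84 ± 0.23 in A-485, 1.74 ± 0.63 in A-485+IFNy and 0.69 ± 0.07 in A-241+IFNy to -0.47 ± 0.82 in A-241. The first pair overlapped and every later neighbour was separated, in an order ranked on these same means. edgeR called *Myc* at none of these separated steps. Among all genes, 15.9% were separated between DMSO and A-485, and 19.7% between A-241+IFNy and A-485+IFNy. No such share is given for the other steps. *Mxd1* ran the other way, from 1.98 ± 0.78 in IFNy, 2.28 ± 0.27 in DMSO, 2.75 ± 0.24 in A-485 and 3.05 ± 0.18 in A-485+IFNy to 3.79 ± 0.34 in A-241 and 3.89 ± 0.38 in A-241+IFNy, and only A-485+IFNy and A-241 were separated among neighbours. That pair was not among the comparisons tested. For *Mnt* no neighbours were separated, from 2.36 ± 0.60 in DMSO to 0.40 ± 0.32 in A-241+IFNy.

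The difference between the 2 opposing genes within a library is given as a description, on log2 CPM with a prior count of 2. The log2 CPM of *Mxd1* minus that of *Myc* was -2.18 to -0.65 in the DMSO libraries and -3.61 to -0.71 in IFNy. It was -0.35 to 0.25 with A-485 and 0.85 to 2.21 with A-485+IFNy. With A-241 it was 3.15 to 5.41 and with A-241+IFNy 2.76 to 3.57. The A-241 values rest on 2, 4 and 0 *Myc* counts and so depend on the prior count, and the highest is that of the library with 0. Both A-241 conditions lay above every library of the other 4 conditions. The pair holds the member with the largest fall and the only member called higher with A-241. This separation therefore repeats those results and adds no support to them. *Mnt*, which also encodes a repressor, fell with A-241 (log2 fold change -2.13). The 2 genes' read counts were not corrected for length, so only the shifts between conditions can be read.

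Genes that MYC is known to act on or act with were followed as lists, chosen from textbook knowledge with earlier results of these data known. Of 40 genes that MYC activates, in glycolysis, ribosome biogenesis and nucleotide and polyamine synthesis, A-241 lowered 7 and raised 0 against DMSO, where 3.53% of all genes were called lower. In this list 32 had a log2 fold change below 0, as had 49.0% of all genes. Their median was -0.37, against 0.01 over all genes. The 6 with the smallest adjusted p were *Hk2* (hexokinase 2), *Polr1b* (an RNA polymerase I subunit), *Nolc1* (a nucleolar phosphoprotein), *Bzw2*, *Rcl1* (a ribosomal RNA processing factor) and *Eno1* (enolase 1), and the seventh, named because the count is complete with it, was *Gnl3*. *Hk2* was at 40.6, 36.4 and 34.5 CPM in DMSO and at 17.2, 17.8 and 17.0 with A-241, without overlap (log2 fold change -1.10 ± 0.17 (SE), edgeR adjusted p = 0.000631). *Polr1b* had the largest fall of the 7, at -1.22 ± 0.22 (adjusted p = 0.00234). DESeq2 called 12 of the 40, limma-voom 6, and edgeR 12 without the 2 libraries that stand apart. The count was 1 without any 1 of the 3 A-241 libraries, 4 without DMSO replicate 1 or 3 and 11 without IFNy replicate 2. It was 4 with no filter on low counts and 0 when only the 2 conditions were fitted. With A-485, edgeR called 0 of the 40, as did DESeq2 and limma-voom, where edgeR called 0.66% of all genes. At that share 0 of 40 is no result about these genes. An unadjusted p under 0.05 was found for 5 of them with A-485, and the median was -0.04. *Hk2* was at 35.6, 30.5 and 45.4 CPM with A-485, overlapping DMSO.

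In IFNγ-treated cells, A-241 lowered 3 of the 40 (*Bzw2*, *Hk2* and *Gnl3*) and raised 0, where 3.54% of all genes were called lower, with a median of -0.35 against -0.02 over all genes. DESeq2 called 5, limma-voom 3, edgeR 4 without the 2 libraries that stand apart and 0 when only the 2 conditions were fitted. *Hk2* was at 23.7, 23.8 and 25.1 CPM against 45.0, 35.4 and 47.5 with IFNγ alone (-0.82 ± 0.17, edgeR adjusted p = 0.00539). The count was 1 without any 1 of the A-241+IFNy libraries or of IFNy replicates 1 and 3. A-485 gave 0 calls with edgeR and limma-voom and 2 with DESeq2, with 3 at an unadjusted p under 0.05 and a median of -0.08. edgeR called 0.552% of all genes there, a share at which 0 of 40 is no result about these genes.

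A second list held 10 genes that MYC is known to repress, 9 of which were tested. A-241 lowered 3 of them and raised 0, where 3.53% of all genes were called lower. The median was -1.23, and all 9 were below 0. *Ccnd1*, which encodes cyclin D1, was at 1161, 1152 and 1322 CPM in DMSO and at 266, 247 and 259 with A-241 (log2 fold change -2.23 ± 0.14, edgeR adjusted p = 7.52e-08). *Ndrg1* (a stress-responsive gene) and *Klf6* (a Krüppel-like transcription factor) fell by 1.3 and 1.06 on the log2 scale. These 3 were kept when any 1 library was left out, edgeR called 5 of the list without the 2 libraries that stand apart, and 1 of the 3 was called when only the 2 conditions were fitted. With A-485, edgeR and limma-voom called 1 of the 9, *Ccnd1*, at 391, 372 and 416 CPM (-1.63 ± 0.14, edgeR adjusted p = 1.8e-05), where 0.66% of all genes were called. DESeq2 called 3, edgeR called 3 without the 2 libraries that stand apart and 0 when only the 2 conditions were fitted, and 5 had an unadjusted p under 0.05, with a list median of -0.49. In IFNγ-treated cells A-241 lowered 4 (*Klf6*, *Ccnd1*, *Ndrg1* and *Gadd45b*), with a median of -0.92, where 3.54% of all genes were called lower, and 1 of the 4 was called when only the 2 conditions were fitted. *Gadd45b*, a DNA damage and stress response gene, had the largest fitted change of the 4 (-1.56 ± 0.33, adjusted p = 0.0071), which limma-voom did not call (0.0139). The count of 4 became 2 without any 1 of the A-241+IFNy libraries or of IFNy replicates 1 and 3. With A-485 and IFNγ, edgeR, DESeq2 and limma-voom each called 1, *Ccnd1* (-1.02 ± 0.14, edgeR adjusted p = 0.000946), where edgeR called 0.552% of all genes. In this comparison edgeR called 4 of the list without the 2 libraries that stand apart and 0 when only the 2 conditions were fitted. The *Ccnd1* call was lost without A-485+IFNy replicate 1 (0.0119).

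**Figure D4:**
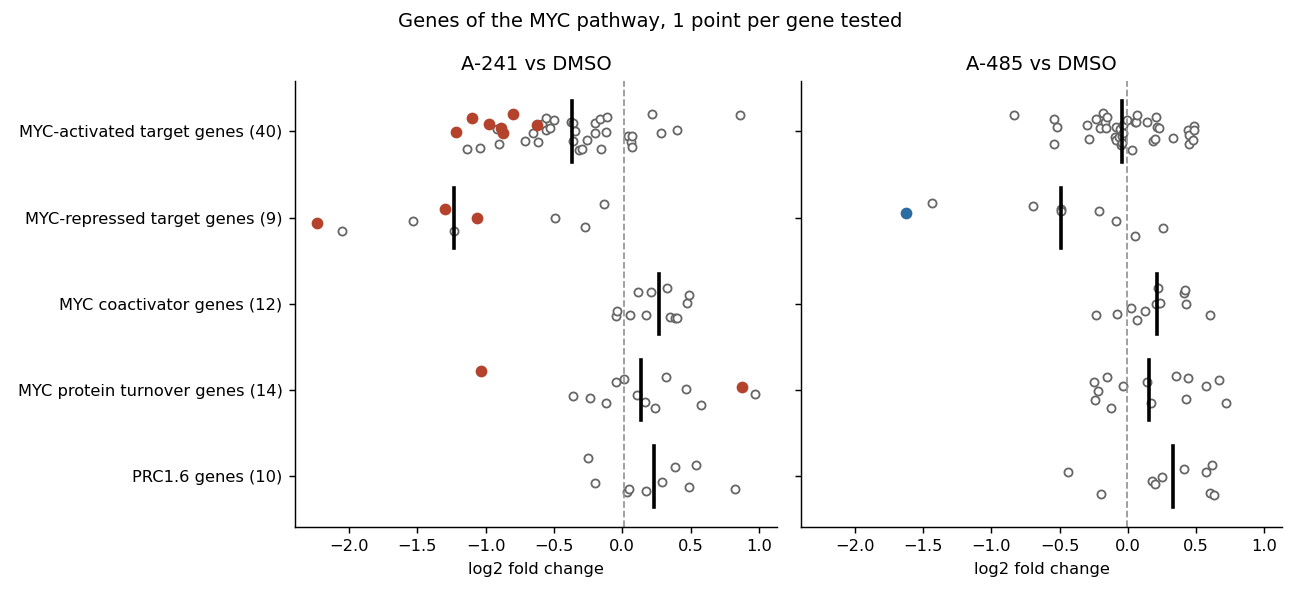
Log2 fold changes of the tested genes of 5 lists, 1 point per gene, with A-241 (left) and A-485 (right) against DMSO; filled points passed an adjusted p under 0.01, black ticks are list medians and the dashed line is the median of all genes. With A-241 the median is -0.37 for the MYC-activated genes and -1.23 for the MYC-repressed genes, and with A-485 it is -0.04 and -0.49.

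The proteins that work with or degrade the members formed further lists. Of 12 MYC coactivator genes, among them the genes of P300 and CBP, 0 were called with A-241 by edgeR, DESeq2 or limma-voom. Of these, 3 had an unadjusted p under 0.05, and the list median was 0.27. Among all genes edgeR called 4.35% (0.827% higher and 3.53% lower), with a median of 0.01. At that share, 0 calls in a list of 10 or 12 genes is no result about those genes. *Sap30*, which encodes a SIN3 subunit, fell (-1.19 ± 0.25 (SE), edgeR adjusted p = 0.00672). Its call was lost without any 1 of the A-241 libraries, without DMSO replicate 1 or 3, and without replicate 1 of A-485, A-241+IFNy or A-485+IFNy, with adjusted p values of 0.0102 to 0.0414. Of 14 genes of MYC protein turnover, *Skp2*, a ubiquitin ligase subunit, rose (0.88 ± 0.17, 0.00327) and *Usp36*, a nucleolar deubiquitinase that stabilizes MYC, fell (-1.04 ± 0.22, 0.0067), with a median of 0.14. edgeR called 3 of these 14 without the 2 libraries that stand apart and 0 when only the 2 conditions were fitted. Both calls were lost without DMSO replicate 1 or 3 or A-241 replicate 1 or 3, and 1 of them without A-241 replicate 2, A-485 replicate 1 or A-485+IFNy replicate 1 or 3. Of 10 genes of PRC1.6, the complex of MGA, 0 were called by each tool, with 3 at an unadjusted p under 0.05 and a median of 0.23.

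In IFNγ-treated cells, *Sap30* fell again with A-241 (-1.25 ± 0.26, edgeR adjusted p = 0.00554), and its call was lost without any 1 of the A-241+IFNy libraries or without IFNy replicate 2 or 3. With A-241, edgeR and limma-voom called 0 genes of the coactivator, turnover and PRC1.6 lists there, where edgeR called 4.09% of all genes. DESeq2 called 1 turnover gene, and edgeR 2 without the 2 libraries that stand apart. An unadjusted p under 0.05 was found for 4 coactivator, 6 turnover and 2 PRC1.6 genes. With A-485, each of the 3 tools called 0 genes of these 3 lists, with or without IFNγ. The edgeR shares of all genes were 0.66% without IFNγ and 0.552% with it. An unadjusted p under 0.05 was found for 1 to 2 genes a list without IFNγ and 0 to 3 with it. At these shares, 0 calls in such short lists is no result about their genes.

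*Arrdc4* and *Txnip*, the best-known targets of MLX and its partner MONDOA, were scarce. With IFNγ alone against DMSO the 2 genes had log2 fold changes of 1.15 and 2.01, both at an unadjusted edgeR p under 0.05 and neither called. *Arrdc4* was at 5.89, 9.81 and 5.76 CPM with IFNγ alone and at 1.09, 2.12 and 3.09 with A-241+IFNy. It fell there (-1.72 ± 0.35, edgeR adjusted p = 0.00521), where 3.54% of all genes were called lower. The call was lost without IFNy replicate 2 or A-241+IFNy replicate 1 or 2, and when only the 2 conditions were fitted (0.0304). Against DMSO, at 2.1, 3.62 and 3.79 CPM, the A-241 libraries held 1.05, 0.999 and 1.26 CPM (adjusted p = 0.0333). With A-485+IFNy it was at 1.72, 2.44 and 1.71 CPM, below every IFNy library, at -1.83 ± 0.36, which edgeR did not call (adjusted p = 0.0141), while DESeq2 gave 0.00106 and edgeR 0.00974 without the 2 libraries that stand apart. *Txnip* was between 0 and 4.29 CPM, with 0 calls, at 4.29, 2.68 and 2.97 CPM with IFNγ alone and at 0, 1.58 and 0.690 in DMSO. Of the partners and other paralogues, *Mlxip*, which encodes MONDOA, was at 2.61 to 8.09 CPM, *Bmyc* at 0 to 4.84 CPM, and neither was called, while *Mlxipl*, which encodes CHREBP, had at most 1 count.

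The genes most like *Myc* over the 18 libraries, by Pearson correlation of log2 CPM among 9847 genes with a mean of at least 20 counts, were *Mtap* (r = 0.948), *Nfic* (0.941), *Adamts5* (0.941), *Tgfb3* (0.938) and *Irf2bp2* (0.936). For *Mxd1* they were *Sirt1* (0.914), *Cdc6* (0.907), *Kifc1* (0.904), *Cul5* (0.902) and *Rnf34* (0.894). These values describe libraries that share treatments and scaling.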

How the data were processed

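The authors sequenced QuantSeq 3′ libraries, trimmed reads with cutadapt 1.7, aligned them to GRCm38 with HISAT2 2.1.0 and counted them on exons with featureCounts, without strand and counting a read on several genes for each. The annotation release is not given in the sources used here. Deposited are raw counts, and all 18 columns matched 1 library by name.

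Genes were filtered with filterByExpr by condition (11964 kept) and scaled by TMM, and edgeR 4.0.16 fitted all libraries in 1 model with 6 condition means (R 4.3.3, glmQLFit and glmQLFTest, two-sided). P-values were adjusted by Benjamini-Hochberg over all tested genes, with 0.01 as the threshold for a call. Standard errors are the fold change over the square root of F, and intervals are approximate. Levels are CPM, or log2 CPM with a prior count of 2. limma 3.58.1 (voom, the study's method) and DESeq2 1.42.0 were alternatives. The fitting was tested on simulated data. Symbols and coordinates came from GENCODE for 42462 of 43629 identifiers (97.3%), and promoters from RefSeq.

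The members and lists were chosen with earlier results of these data known. All 10 members are named, with the 5 genes most like *Myc* and *Mxd1*, and, of the other lists, at most 6 genes called with A-241 in each context, by smallest adjusted p. A list of corepressor genes is not reported here, apart from *Sap30*. No replicate pair was identical, and chi-square over degrees of freedom was 2.13 to 135 in 18 pairs.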

Additional observations from a re-analysis of the deposited data

How the results depend on the processing

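Depth is one limit: *Myc*, *Mnt*, *Mxd1* and *Mycl* have few counts, and intervals cover only the spread between libraries. The 11 comparisons were repeated under 31 other settings, and only *Myc*, *Mnt* and *Mxd1* were called under any of them. With at least 10 counts in every library these 3 were not tested, so 0 members were called with A-241 against DMSO, with A-241+IFNy against IFNy and with A-241 against A-485. Fits of only the groups compared, which have fewer libraries to estimate the spread, called 0 in the first 2. With A-241 against A-485 limma-voom and the replicate block called 0. With A-485+IFNy against IFNy, 1 member (*Myc*) was called by DESeq2, without the filter, without both libraries rich in *Gm42418* and at an adjusted p under 0.05. Leaving out 1 library gave 1 to 3 calls with A-241 against DMSO, 0 to 1 with A-241 against A-485, 1 to 3 with A-241+IFNy against IFNy and 0 to 1 with A-485+IFNy against IFNy.

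Of 45 log2 fold changes (the 9 members with A-241 against DMSO and A-241+IFNy against IFNy, and *Myc*, *Mnt* and *Mxd1* in the other 9 comparisons), 10 changed sign under some setting, as did 26 of the other 54, and none of these had been called; the cause was not tested. Without 1 library the *Max* value ranged from -0.39 to 0.42 with A-241 against DMSO and from -0.44 to 0.24 with A-241+IFNy against IFNy, *Mxd4* from -0.30 to 0.10 with A-241 and *Mxi1* from -0.19 to 0.072 with A-241+IFNy. With IFNγ alone *Myc* ranged from -0.30 to 0.69 and *Mxd1* from -0.51 to 0.14. With A-241+IFNy against A-241 *Mxd1* ranged from -0.066 to 0.28 and *Mnt* from -0.36 to 0.19, and the A-241 interactions from -0.0060 to 0.62 for *Mxd1* and from -0.077 to 0.60 for *Mnt*. Without both libraries rich in *Gm42418*, *Max* with A-241 was -0.44 and *Mxd1* with IFNγ 0.12. With A-241+IFNy, *Max* was 0.17 by limma-voom and 0.043 with total counts, and *Mxi1* 0.077 with total counts. Total counts moved the median of all genes with A-241 from 0.01 to 0.12, and with A-241+IFNy from -0.02 to 0.13, where the split of higher and lower calls went from 65 and 424 to 96 and 294. The median of the 9 members there changed sign, from -0.04 to 0.08.

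Replicate numbers did not pair the libraries: over 45 pairs the correlation of deviations ran from -0.80 to 0.48 (median -0.018), and 3 of 18 libraries correlated best with their own number. With the replicate block, 3 members were called with A-241 against DMSO, 2 with A-241+IFNy and 0 with A-241 against A-485.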
